A study of Mus musculus with 51 samples.

Results

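SV40-transformed mouse embryonic fibroblasts (MEFs) that carried a construct labelled HMGN5 OE were compared with the same cells carrying an empty vector, across all genes of the array. The arrays were chosen by their labels, 3 titled HMGN5 OE and 3 titled empty vector OE, which is 6 of the 51 arrays of the series. OE stands here for overexpression. The HMGN5 OE cells are a pool of SV40-transformed MEFs, obtained from ATCC, infected with a retrovirus for HMGN5, and the empty vector cells are a pool of the same line infected with the retrovirus alone. Other pools of the line used below received constructs labelled HMGN5SE, HMGN2, HMGN1, HMGN3a, HMGN1_N2swap or HMGN1_N3swap, with 3 arrays each, so that 24 arrays of this line entered 1 fit. All pools shared the viral large T antigen background, polybrene at 5 µg/ml during infection, puromycin at 1 µg/ml for 7 days and 24 h without the drug before RNA was collected. The submitters state that pools rather than clones were collected. They also report a raised amount of HMGN protein, which the array values used here do not measure. The labels say neither what SE stands for nor from which species the HMGN5 sequence came. Nothing states that the 3 arrays of a group represent separate infections, so the p-values measure the spread between these samples, which may be technical.

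HMGN5 belongs to the high mobility group N proteins, small nuclear proteins that bind nucleosomes. It differs from its relatives by a long, acidic tail, through which it is known to contact linker histones, counteract the compaction of chromatin and alter transcription when its level is raised. Fibroblasts make and remodel the collagen-rich matrix around them, and they carry the sensing and interferon machinery that most cells use against viral nucleic acid.

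The gene named by the label was read first. Its 1 probe set, Hmgn5 on the X chromosome, had log2 intensities of 7.63, 7.59 and 7.64 in the arrays labelled HMGN5 OE, against 8.48, 8.47 and 8.69 in empty vector. The signal was thus lower in all 3 arrays labelled as overexpression, with no overlap, by a log2 difference of -0.93 ± 0.08 (standard error, n = 3 each, limma adjusted p = 3.16e-09). The HMGN5SE pool averaged 8.50, and the other pools lay between 8.25 and 8.37, so the arrays labelled HMGN5 OE held the lowest Hmgn5 signal of the line. The files do not show whether the construct carries the part of the transcript that this probe set reads. A probe set outside that part checks nothing about the label, and every direction given below rests on the label alone. Among the relatives, Hmgn1 rose on its 3 bright probe sets, for instance to 12.64 in the arrays labelled HMGN5 OE against 12.26 in empty vector (log2 difference 0.37 ± 0.07, limma adjusted p = 7.25e-05). Hmgn1 is the last gene of the highest run of 50 neighbouring tested genes on chromosome 16, which had a median of 0.22, with 26 higher and 2 lower. Whether its rise belongs to that run was not tested. The probe set of Hmgn2, shared with other genes, had 12.29 in the arrays labelled HMGN5 OE and 11.90 in empty vector (0.39 ± 0.08). Hmgn3 had 9.51 in the arrays labelled HMGN5 OE and 9.48 in empty vector and was not called (0.03 ± 0.08, limma adjusted p = 0.779).

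The arrays labelled HMGN5 OE stood apart from the rest of the line. Median intensity per array was 18.6 to 19.6 across the 24 arrays, and the difference between 3′ and 5′ Actb control probe sets, a sign of RNA integrity, was 0.18 to 0.25 in the arrays labelled HMGN5 OE and 0.23 to 0.29 in empty vector. Arrays of 1 pool correlated at 0.9975 to 0.9977 within HMGN5 OE and at 0.9973 to 0.9975 within empty vector, and at 0.9671 to 0.9678 between the pools. The first principal component, with 35.1% of the variance, placed the arrays labelled HMGN5 OE at 48.4 to 48.9 and the 21 others between -21.2 and 5.0.

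**Figure D1:**
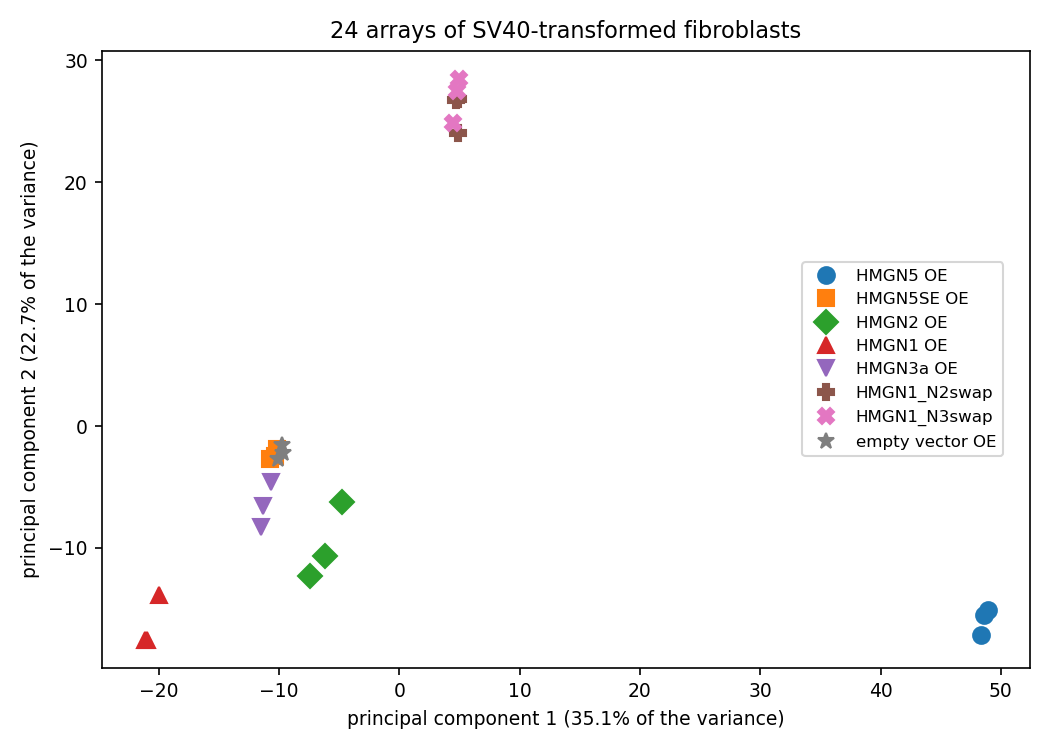
Principal components 1 and 2 of the 24 arrays of SV40-transformed MEFs, in units of the component score, with 1 point per array and a symbol for each pool. The arrays labelled HMGN5 OE sit alone at the right, at 48.4 to 48.9 on component 1, while the empty vector arrays lie near -10.

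RNA levels differed widely between the arrays labelled HMGN5 OE and empty vector. Matrix and collagen-crosslinking genes such as Fbln2 and Lox, contractile genes such as Acta2, nearly the whole cholesterol synthesis pathway and several Hox genes were higher. Interferon-responsive genes such as Oasl2 and Ifit1 and every tested gene of serine synthesis and the amino acid response were lower. Of 13469 genes tested with limma, 5593 (41.5%) were called at an adjusted p below 0.05, 2788 (20.7%) higher and 2805 (20.8%) lower. With such a background a single small call carries little, so sizes are given throughout. Counts of called list members below are to be read against these shares. At least 1.5-fold changes were called for 840 genes (6.24%) that rose and 708 (5.26%) that fell. With group means below the detection floor given below taken at that floor, 113 genes rose and 48 fell by at least 4-fold, and 14 rose and 1 fell by at least 16-fold. The 3 values of each group did not overlap for 7574 genes (56.2%), and the median log2 difference over all genes was -0.01.

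The 15 largest rises were ranked by the fitted log2 difference. Where a group mean lies below the floor this difference is read partly from background, so the rank of such genes is uncertain and their fold is given as a bound. Fbln2, on chromosome 6, encodes fibulin-2, a glycoprotein of elastic fibres and basement membranes, and had log2 intensities of 10.80, 10.71 and 10.69 in the arrays labelled HMGN5 OE, against 4.82, 4.78 and 4.61 in empty vector. The groups lay far apart, with a 63.9-fold rise (log2 difference 6.00 ± 0.11, limma adjusted p = 1.13e-20). Dlk1, on chromosome 12, is an imprinted membrane ligand that restrains adipocyte differentiation, and it had 10.05, 9.85 and 9.69 in the arrays labelled HMGN5 OE, against 3.77, 4.04 and 3.91 in empty vector. That is a 62.2-fold rise (5.96 ± 0.12, limma adjusted p = 2.37e-20). In the other pools Dlk1 averaged 3.86 in HMGN5SE, 3.74 in HMGN2, 3.85 in HMGN1, 3.78 in HMGN3a, 3.91 in HMGN1_N2swap and 3.68 in HMGN1_N3swap, all near the vector value. Lox, the lysyl oxidase that crosslinks collagen and elastin, had 9.20, 9.30 and 9.38 in the arrays labelled HMGN5 OE, against 3.85, 3.46 and 3.50 in empty vector. Probe sets had to exceed log2 3.63 to be tested, and this level serves as a floor here. The vector mean of Lox was under it, so Lox was at least 48.2-fold higher (limma adjusted p = 8.09e-19).

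Others of the 15 largest rises covered several functions. Cyba, a membrane subunit of the NADPH oxidase, rose 48.4-fold (log2 difference 5.60 ± 0.15), and Nid1, the nidogen that links laminin to collagen IV, rose 45.2-fold (5.50 ± 0.13). Ptn, the heparin-binding growth factor pleiotrophin, rose 35.3-fold (5.14 ± 0.12), and Klhl22, an adaptor of a cullin ubiquitin ligase, rose 30.0-fold (4.91 ± 0.10). The cytochrome P450 Cyp1b1 rose 24.0-fold (4.58 ± 0.11), and the surface glycoproteins Cd24a and Cd34 rose 23.9-fold (4.58 ± 0.12) and 22.4-fold (4.49 ± 0.18). A further 5 genes had a vector mean below the floor. Gask1b was at least 31.7-fold higher, AI506816 at least 26.6-fold, the arylsulfatase relative Arsj at least 15.1-fold, the meiotic cohesin subunit Stag3 at least 13.7-fold and the transcription factor Tcfl5 at least 9.46-fold. In none of these 15 genes did an array of one group reach the range of the other, as the selection rule required.

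**Figure D2:**
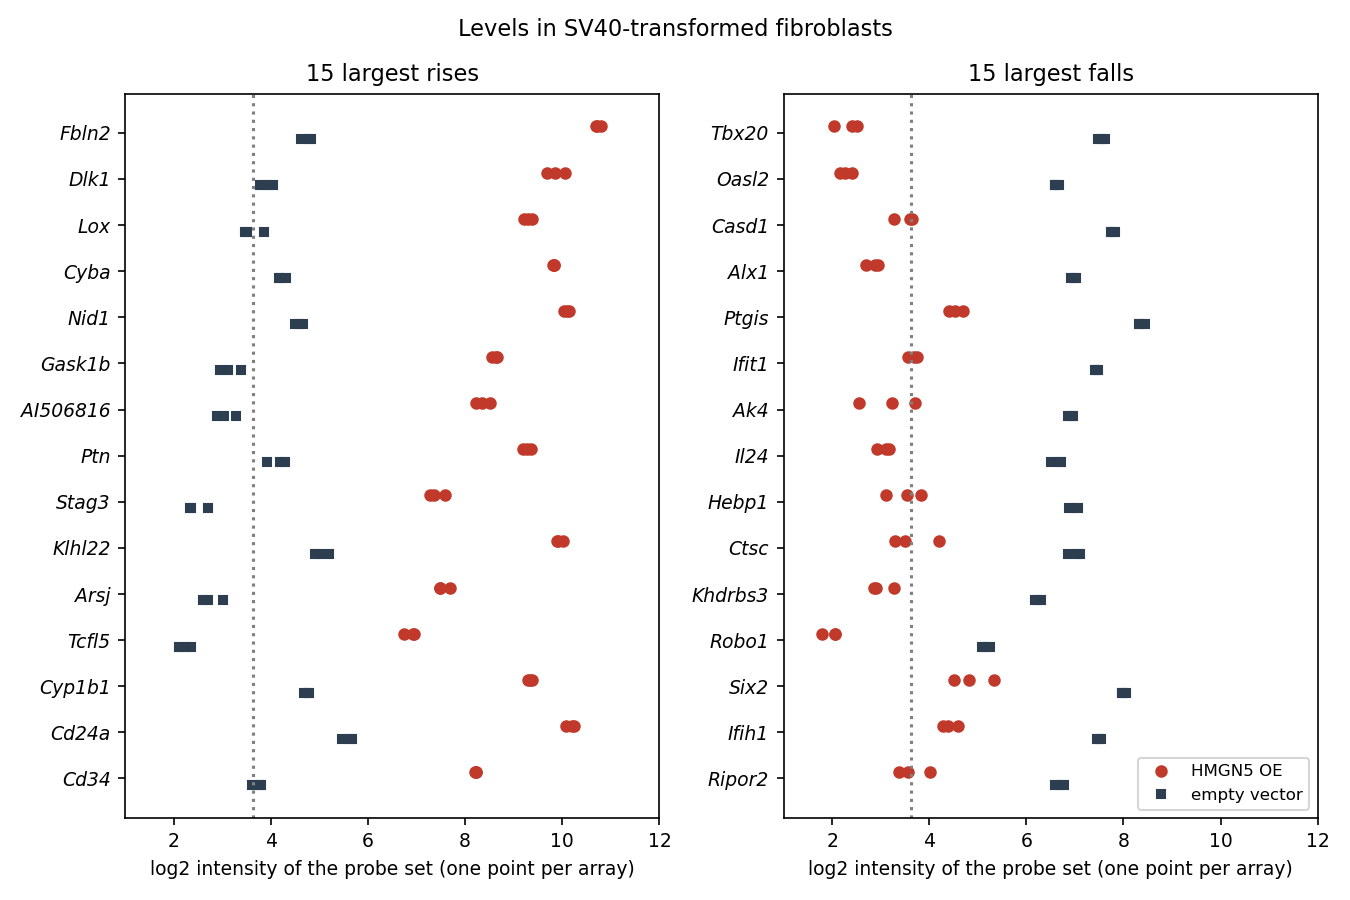
Log2 intensity of the 15 genes with the largest rises and the 15 with the largest falls, with 1 point per array, circles for the arrays labelled HMGN5 OE and squares for empty vector. The dotted line is the floor at log2 3.63, and the groups of 3 points lie on either side of a wide gap in each gene.

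The 15 largest falls were ranked in the same way, with the same limit. Tbx20, a T-box factor of the developing heart on chromosome 9, had log2 intensities of 2.03, 2.41 and 2.52 in the arrays labelled HMGN5 OE, against 7.48, 7.56 and 7.63 in empty vector. Since the arrays labelled HMGN5 OE lay below the floor, it was at least 15.2-fold lower (limma adjusted p = 3.62e-20). Alx1, a homeobox factor of the face and skull on chromosome 10, had 2.70, 2.88 and 2.94 in the arrays labelled HMGN5 OE, against 6.98, 6.92 and 7.02 in empty vector, which is at least 10.2-fold lower (limma adjusted p = 8.57e-19). The mean of Tbx20 in the 6 other construct pools was 7.35 to 8.05 and that of Alx1 6.77 to 7.71, so both were low in the arrays labelled HMGN5 OE and in no other pool of the line. Six2, a homeobox factor of kidney and face mesenchyme, fell by 3.11 on the log2 scale (± 0.12), with 4.81, 5.33 and 4.52 in the arrays labelled HMGN5 OE and 7.97, 8.05 and 7.97 in empty vector. Ptgis, the prostacyclin synthase, fell 14.1-fold (-3.82 ± 0.08), and the lysosomal protease Ctsc fell 10.1-fold (-3.34 ± 0.15). At or below the floor were the sialic acid acetyltransferase Casd1 (at least 17.7-fold lower), the heme-binding protein Hebp1 (at least 9.65-fold), the adenylate kinase Ak4 (at least 9.61-fold), the cytokine Il24 (at least 8.02-fold), the RNA-binding protein Khdrbs3 (at least 6.07-fold) and the Slit receptor Robo1 (at least 2.89-fold). Of the 30 genes with the largest rises and falls, 12 had another probe set above the filter, and 18 of those 19 probe sets were called in the same direction, with 1 not called.

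Genes for the matrix around fibroblasts rose together. Of 21 listed genes for fibrillar collagens and the enzymes that process and crosslink them, 20 were tested, 16 rose and 2 fell, with a median log2 difference of 0.63 against -0.01 for all genes. Col3a1, the type III chain, had 10.95, 10.82 and 10.78 in the arrays labelled HMGN5 OE, against 6.80, 6.55 and 6.73 in empty vector, a 17.8-fold rise (4.16 ± 0.12, limma adjusted p = 1.26e-17). Col1a2, a chain of the main fibrillar collagen, was already bright and had 12.22, 12.23 and 12.14 in the arrays labelled HMGN5 OE, against 9.54, 9.31 and 9.28 in empty vector (2.82 ± 0.08, 7.07-fold). The other chain, Col1a1, rose 3.36-fold (1.75 ± 0.12). All 3 tested chains of collagen VI rose, Col6a2 by 2.86 ± 0.09, Col6a3 by 1.77 and Col6a1 by 1.70. Of the lysyl oxidase family, Loxl3 rose by 2.04 and Loxl1 by 0.29, whereas Loxl4 fell by 0.73 on the log2 scale. The collagen chaperone Serpinh1 (0.07) and the lysyl hydroxylase Plod2 (0.06) were not called.

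Among other matrix proteins, 22 of 27 listed were tested, 15 rose and 1 fell, with a median log2 difference of 1.24, or 1.15 with members below the floor at their bound. Beside Fbln2 and Nid1, the elastic fibre protein Fbln5 had 7.66, 7.50 and 7.26 in the arrays labelled HMGN5 OE, against 4.40, 3.74 and 3.96 in empty vector (3.44 ± 0.18, 10.9-fold). Mgp, an inhibitor of calcification, had 6.40, 6.61 and 5.99 in the arrays labelled HMGN5 OE, against 3.22, 3.48 and 3.28 in empty vector, and was at least 6.53-fold higher. The thrombospondins Thbs2 (2.72) and Thbs1 (2.67), periostin Postn (2.31), tenascin Tnc (1.76), fibronectin Fn1 (1.75) and versican Vcan (1.74) rose too. Fbln1 fell by 0.80 on the log2 scale, and the laminin chains Lamb1 (-0.23), Lamc1 (0.10) and Lama2 (-0.21) were not called. Basement membrane collagens rose little, Col4a2 by 0.19 and Col4a1 by 0.15. In pools of cells, more cells that express a gene and more RNA per cell cannot be told apart.

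Enzymes that cut the matrix and their inhibitors moved less evenly. Of 12 tested, 7 rose and 1 fell, with a median of 0.35. Timp3, an inhibitor that binds the matrix, had 8.55, 8.27 and 8.31 in the arrays labelled HMGN5 OE, against 4.48, 4.55 and 4.16 in empty vector (3.98 ± 0.13, 15.8-fold), while its relative Timp1 fell by 0.62 on the log2 scale. The aggrecan-cutting Adamts5 rose 6.18-fold (2.63 ± 0.15) and Adamts1 2.25-fold (1.17 ± 0.11). The stromelysins Mmp3 (0.12) and Mmp10 (0.06) were not called.

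Contractile genes and targets of the coactivator YAP rose in 13 of 18 tested cases and fell in 1, with a median of 0.41, or 0.36 with members below the floor at their bound. Acta2, the smooth muscle actin that marks contractile fibroblasts, had 11.65, 11.66 and 11.60 in the arrays labelled HMGN5 OE, against 8.11, 8.15 and 7.94 in empty vector (3.57 ± 0.10, 11.9-fold, limma adjusted p = 7.90e-18). Tagln, an actin-binding protein of smooth muscle, rose 2.79-fold (1.48 ± 0.08), and the matrix-associated YAP target Ccn2 rose 2.90-fold (1.54 ± 0.09). Cnn2 fell by 0.35 on the log2 scale, and Cnn1 (-0.05) and Axl (0.12) were not called. Adhesion genes followed a mixed course, with 7 of 15 tested higher and 3 lower. Cdh11, the cadherin of mesenchymal cells, had 7.66, 7.57 and 7.87 in the arrays labelled HMGN5 OE, against 3.66, 3.88 and 3.88 in empty vector (3.90 ± 0.12, 14.9-fold), and Ncam1 rose 2.58-fold. The laminin receptor subunit Itga6 fell by 0.99 on the log2 scale. Pcdh7, a protocadherin, was at least 2.84-fold higher on its brightest probe set, but with no filter on dim probe sets another probe set stands for the gene and gave a log2 difference of -0.018.

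Interferon-responsive genes were lower. Type I interferon, or nucleic acid sensed inside the cell, activates factors that bind the interferon-stimulated response element (ISRE) in the promoters of such genes. The promoters of Ifit1, which binds foreign RNA, and Rsad2, the antiviral enzyme viperin, are shown because both fell and hold this element. They are RefSeq sequences of the build GRCm38.p6, from 250 bases before to 50 bases after the start of the gene, written 5′ to 3′ on the strand of the gene, with the element on either strand in capitals. Ifit1 lies at chr19:34640639-34640938 on the plus strand and Rsad2 at chr12:26456403-26456702 on the minus strand.
Ifit1: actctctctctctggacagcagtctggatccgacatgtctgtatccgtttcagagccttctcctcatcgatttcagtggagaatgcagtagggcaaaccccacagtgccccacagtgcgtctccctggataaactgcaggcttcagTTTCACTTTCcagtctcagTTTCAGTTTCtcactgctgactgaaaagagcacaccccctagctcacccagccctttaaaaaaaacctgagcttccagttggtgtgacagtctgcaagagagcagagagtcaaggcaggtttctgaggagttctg
Rsad2: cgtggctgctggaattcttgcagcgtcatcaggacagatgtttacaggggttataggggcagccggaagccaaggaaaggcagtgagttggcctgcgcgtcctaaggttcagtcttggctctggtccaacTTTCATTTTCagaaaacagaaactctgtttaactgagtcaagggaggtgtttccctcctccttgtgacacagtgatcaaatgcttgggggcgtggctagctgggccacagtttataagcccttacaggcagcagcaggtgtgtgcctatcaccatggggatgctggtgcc

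Searched as GAAA, any 2 bases and GAAA again, on both strands with overlapping matches included, the element was in 12 of 23 promoters of the listed interferon genes (52.2%), against 3.44% of all 32851 promoters of the same length. A match describes the letters and shows no binding. Of 34 listed interferon-responsive genes, 29 were tested, and 20 fell and 0 rose by limma, with 1 higher at an unadjusted p below 0.05 and 1 called higher under 6 of the alternative settings. The median log2 difference was -0.85, and the summed intensity of the 29 genes was 1959.8 to 1989.5 in the arrays labelled HMGN5 OE, against 3274.5 to 3379.2 in empty vector. Ifit1 had log2 intensities of 3.75, 3.57 and 3.68 in the arrays labelled HMGN5 OE, against 7.48, 7.44 and 7.41 in empty vector, a 13.7-fold fall to near the floor (-3.78 ± 0.13, limma adjusted p = 1.88e-16). Oasl2, an oligoadenylate synthetase-like protein, had 2.41, 2.26 and 2.15 in the arrays labelled HMGN5 OE, against 6.59, 6.60 and 6.67 in empty vector, and was at least 7.93-fold lower. Ifih1, the sensor of long double-stranded RNA known as MDA5, had 4.59, 4.29 and 4.39 in the arrays labelled HMGN5 OE, against 7.45, 7.53 and 7.47 in empty vector (-3.06 ± 0.09, 8.34-fold). In each of these 3 genes the groups lay far apart.

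Further down the same list, Rtp4 fell by 2.80 on the log2 scale, Xaf1 by 2.53, Rsad2 by 2.07 and Cmpk2 by 1.86. The interferon-regulatory factors Irf7 (-1.01 ± 0.14) and Irf9 (-1.01) and the guanylate-binding proteins Gbp3 (-1.64) and Gbp2 (-0.85) also fell, but Irf7 was dim in both pools. The signal transducer Stat2 (-0.27), Ifit2 (-0.18), Oas2 (-0.26), Oas3 (-0.36) and Irgm1 (-0.15) were not called. Chemokines and cytokines did not share 1 direction, with 6 of 16 tested higher and 4 lower. Ccl5 had 6.20, 6.17 and 6.07 in the arrays labelled HMGN5 OE, against 9.12, 9.25 and 9.06 in empty vector (-3.00 ± 0.07, 7.98-fold), and Cxcl10 had 5.77, 5.75 and 5.85 in the arrays labelled HMGN5 OE, against 8.21, 8.27 and 8.24 in empty vector (-2.45 ± 0.08, 5.47-fold). Other chemokines rose, Cxcl12, a stromal attractant of blood cell precursors, to 9.26 in the arrays labelled HMGN5 OE against 5.73 in empty vector (3.53 ± 0.09, 11.6-fold) and Ccl7 by 1.55 ± 0.14. Genes of antigen processing for MHC class I did not share 1 direction, with 3 of 12 tested higher and 4 lower. The peptide transporter Tap2 rose by 0.96 ± 0.13, whereas the peptidase Erap1 fell by 0.75 on the log2 scale and the immunoproteasome subunit Psmb10 by 0.69.

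All 19 listed genes of serine synthesis and the amino acid response fell, 0 rose at an adjusted or unadjusted p below 0.05, and the median log2 difference was -0.63. These genes make serine, glycine and asparagine, import amino acids, or are induced by the factor Atf4 when amino acids or protein folding fail. The promoters of Chac1, which degrades glutathione, and Asns, the asparagine synthetase, are shown because both genes fell and hold the element through which Atf4 is known to act, the C/EBP-ATF response element. They come from the same RefSeq table and window, Chac1 at chr2:119350992-119351291 on the plus strand and Asns at chr6:7693160-7693459 on the minus strand, with the element in capitals.
Chac1: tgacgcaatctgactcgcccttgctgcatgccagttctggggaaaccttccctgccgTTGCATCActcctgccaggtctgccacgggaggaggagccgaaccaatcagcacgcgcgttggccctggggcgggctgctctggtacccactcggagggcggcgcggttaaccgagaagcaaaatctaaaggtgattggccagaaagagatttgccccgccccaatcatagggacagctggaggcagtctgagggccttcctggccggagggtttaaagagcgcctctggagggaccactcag
Asns: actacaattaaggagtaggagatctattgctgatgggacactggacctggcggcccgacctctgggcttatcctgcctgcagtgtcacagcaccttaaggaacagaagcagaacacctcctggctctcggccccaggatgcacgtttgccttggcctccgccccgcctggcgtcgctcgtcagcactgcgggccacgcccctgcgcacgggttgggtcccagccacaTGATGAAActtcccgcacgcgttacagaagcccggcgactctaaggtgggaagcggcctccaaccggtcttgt

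Searched as TGATGNAA on both strands, overlapping matches included, this element was in 5 of 20 promoters of the listed genes (25%), against 3.97% of all promoters. Chac1 had log2 intensities of 7.82, 7.82 and 7.75 in the arrays labelled HMGN5 OE, against 9.08, 9.12 and 9.03 in empty vector (-1.28 ± 0.08, 2.43-fold, limma adjusted p = 3.36e-11). Trib3, a pseudokinase that Atf4 induces, had 6.45, 6.45 and 6.33 in the arrays labelled HMGN5 OE, against 7.66, 7.72 and 7.88 in empty vector (-1.35 ± 0.12, 2.54-fold). The groups did not overlap in any of the 19 genes, as was also the case for 56.2% of all tested genes. Of the serine pathway itself, Psph, the phosphatase of the last step, fell most, with 9.17, 9.20 and 9.11 in the arrays labelled HMGN5 OE against 10.33, 10.27 and 10.29 in empty vector (-1.14 ± 0.06, 2.20-fold). Psat1 (-0.63) and Phgdh (-0.46), which catalyse the steps before it, fell less. The mitochondrial enzymes Pck2 (-1.06 ± 0.07), Mthfd2 (-0.90) and Shmt2 (-0.49), the transporters Slc7a11 (-0.91) and Slc7a5 (-0.74) and Asns (-0.82) fell too. Atf4 itself fell by 0.32 on the log2 scale and the stress factor Ddit3 by 0.23.

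Cholesterol synthesis ran the other way. Of 23 listed genes, 19 were tested, 17 rose and 1 fell, with a median log2 difference of 0.78. Insig1, which holds the cholesterol sensor in the endoplasmic reticulum and is induced when sterols are low, had 8.03, 8.07 and 8.10 in the arrays labelled HMGN5 OE, against 5.73, 6.10 and 6.25 in empty vector (2.04 ± 0.12, 4.10-fold). Cyp51, the lanosterol demethylase, had 8.47, 8.36 and 8.52 in the arrays labelled HMGN5 OE, against 6.73, 6.82 and 6.90 in empty vector (1.63 ± 0.08, 3.10-fold). The bright early enzyme Hmgcs1 rose 2.44-fold (1.29 ± 0.07) and Fdps, which makes farnesyl pyrophosphate, rose 2.19-fold (1.13 ± 0.11). Nsdhl (1.12), Hsd17b7 (1.10), Fdft1 (1.08) and Msmo1 (0.94), enzymes of the later steps, rose by similar amounts, and the transcription factor of the pathway, Srebf2, rose by 0.66. Ebp (0.02) was not called. The exception was Sqle, the squalene epoxidase, with 9.51, 9.50 and 9.55 in the arrays labelled HMGN5 OE, against 10.01, 9.97 and 10.02 in empty vector (-0.48 ± 0.07, limma adjusted p = 5.59e-06). Sqle lies on chromosome 15 in the run of lower genes described at the end. The sterol regulatory element TCACNCCAC, searched in the same way, was in 1 of 18 promoters of the list (5.6%), that of Hmgcs1, against 1.24% of all promoters.

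**Figure D3:**
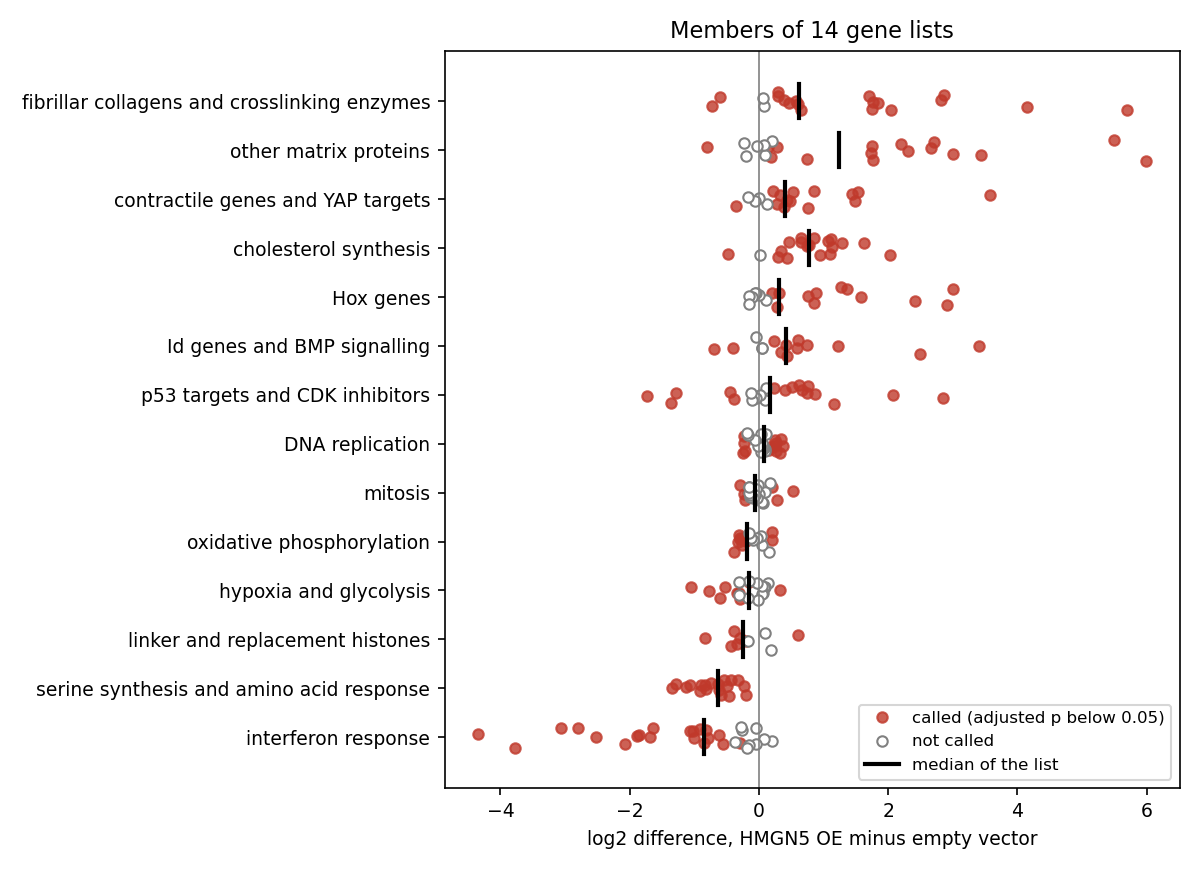
Log2 difference, HMGN5 OE minus empty vector, of each tested member of 14 gene lists, with filled points for called genes, open points for the others and a bar at the median of the list. All 19 members of the amino acid list lie left of 0, and 17 of 19 cholesterol genes are called to the right of it.

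Genes that pattern the embryo changed strongly, in both directions. Of 29 Hox genes, which encode positional identity along the body axis, 19 were tested, 12 rose and 0 fell, also at an unadjusted p below 0.05, with a median of 0.31. Hoxc6 had 7.44, 7.44 and 7.26 in the arrays labelled HMGN5 OE, against 4.23, 4.73 and 4.19 in empty vector (3.00 ± 0.11, 7.99-fold), and Hoxc4 rose 3.00-fold (1.58 ± 0.09), while Hoxc5 (0.22), Hoxc9 (-0.11) and Hoxc13 (0.24) of the same cluster were not called. In the B cluster Hoxb6 had 7.46, 7.46 and 7.53 in the arrays labelled HMGN5 OE, against 4.68, 4.53 and 4.53 in empty vector (2.91 ± 0.10, 7.49-fold), while Hoxb7 beside it was not called (-0.16). Hoxa10 was at least 2.92-fold higher. The tested genes of the D cluster, Hoxd8 (0.11), Hoxd9 (-0.04) and Hoxd13 (-0.06), were not called.

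Sox2, a factor of pluripotent and neural precursor cells, had 6.15, 6.16 and 6.20 in the arrays labelled HMGN5 OE, against 1.72, 1.80 and 1.69 in empty vector. It was at least 5.82-fold higher. In the other construct pools it averaged 1.77 to 1.96, far below the floor. Sox2 thus entered the test only through the arrays labelled HMGN5 OE. A rise was the only call it could get, so its p-value adds no support and is left out. Sox11 went the opposite way, with 6.41, 6.23 and 6.31 in the arrays labelled HMGN5 OE, against 8.75, 8.85 and 9.01 in empty vector (-2.55 ± 0.11, 5.86-fold), and Sox4 rose by 1.07 ± 0.06. Of 25 tested mesenchymal patterning factors 9 rose and 8 fell. Twist2, a repressor of mesenchymal differentiation, rose 4.49-fold to 10.08, 10.08 and 10.06 in the arrays labelled HMGN5 OE, against 7.91, 7.95 and 7.86 in empty vector, and the zinc finger factors Snai2 (1.09) and Zeb1 (0.98) rose as well, while Zeb2 fell by 0.53 on the log2 scale.

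Antagonists and targets of bone morphogenetic proteins (BMPs) rose in 10 of 15 tested cases and fell in 2, with a median of 0.42. Grem1, a secreted BMP antagonist, had 7.54, 7.46 and 7.73 in the arrays labelled HMGN5 OE, against 4.30, 4.06 and 4.15 in empty vector (3.41 ± 0.10, 10.6-fold), and the antagonist Nog fell by 0.69 on the log2 scale. Inhba, a subunit of activin, rose 5.66-fold (2.50 ± 0.12), and Fst, which binds activin, rose 2.35-fold (1.23 ± 0.15). The inhibitors of differentiation Id1 (0.74 ± 0.10), Id2 (0.59) and Id3 (0.44), which BMPs induce, rose, and Id4 (0.05) was not called. Of 15 tested imprinted growth genes 6 rose and 4 fell. Beside Dlk1, the growth inhibitor Cdkn1c had 6.54, 6.64 and 6.48 in the arrays labelled HMGN5 OE, against 3.78, 3.78 and 3.56 in empty vector (2.85 ± 0.13, 7.20-fold). Ndn rose 3.52-fold, and Igf2 (0.01) was not called. Slc38a4 fell most (-1.20), and the median of the imprinted list was 0.01. Wnt receptors and inhibitors, with 6 of 17 higher and 5 lower, showed no common direction.

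Cell cycle genes changed little in size, and 50% of replication and 30.4% of mitosis genes were called, against 41.5% of all genes. Of 26 replication genes 9 rose and 4 fell, from Rrm2 at -0.25 to Rfc3 at 0.37 ± 0.10, and of 23 mitosis genes 3 rose and 4 fell, or 7 under 4 alternative settings, with Birc5, which guards chromosome segregation, at 0.53 ± 0.07. Larger changes were seen among p53 targets, cyclins and cyclin-dependent kinase inhibitors, where 11 of 22 rose and 5 fell. Trp53inp1 rose 4.21-fold (2.08 ± 0.12) and the death receptor Fas by 1.17, whereas the cyclin Ccnd2 had 9.21, 9.32 and 9.25 in the arrays labelled HMGN5 OE, against 11.03, 11.00 and 10.93 in empty vector (-1.73 ± 0.06, 3.31-fold). Cdkn1a rose by only 0.24, and Mdm2 (0.10) was not called. SV40 large T antigen, shared by both pools, is known to bind p53 and Rb proteins.

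RNA of oxidative phosphorylation genes was slightly lower, with 63.2% of the list called, against 41.5% of all genes. Of hypoxia and glycolysis genes 42.9% were called, a share near that of all genes. Of 19 tested genes of oxidative phosphorylation 2 rose and 10 fell (median -0.18), with Uqcrc1 lowest at -0.38 ± 0.10. Of 21 genes of hypoxia and glycolysis 1 rose and 8 fell (median -0.15), among them the phosphofructokinases Pfkp (-1.05 ± 0.07) and Pfkl (-0.77 ± 0.13), while Ldha (0.07) and Pkm (-0.01) were not called. Stress genes were split, with the inducible Hspa1b at 8.89, 8.86 and 9.01 in the arrays labelled HMGN5 OE, against 9.92, 9.97 and 9.98 in empty vector (-1.04 ± 0.09), its near-identical neighbour Hspa1a at -1.16 ± 0.13 and the small heat shock gene Hspb1 at 0.58 ± 0.07. Signals of Hspa1a and Hspa1b may mix, since their sequences are almost the same. In all, 6 of 15 heat shock and chaperone genes rose and 3 fell, and 6 of 19 immediate early genes rose, led by Fosl2 (1.14 ± 0.08), against 9 that fell, led by Ier3 (-0.99 ± 0.07).

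Chromatin proteins, among which HMGN5 acts, changed by small amounts. Of 10 tested linker and replacement histones 1 rose and 6 fell, with a median of -0.24 (-0.19 with 1 member at its bound), but only 3 were lower without empty vector replicate 3. H2ax, the variant that marks DNA breaks, had 9.66, 9.76 and 9.68 in the arrays labelled HMGN5 OE, against 10.59, 10.51 and 10.53 in empty vector (-0.84 ± 0.06), and H2az2 rose by 0.61 ± 0.07. Of the linker histones, which HMGN5 is known to contact, H1f2 fell by 0.39 on the log2 scale (± 0.10) and H1f4 by 0.29, and H1f10 (0.19) was not called. The remodelling ATPase Chd3 fell by 0.66 (± 0.08) and the Polycomb subunit Bmi1 by 0.46, whereas the Polycomb subunit Cbx2 rose by 0.55 ± 0.07. Of 15 tested Polycomb and remodelling genes 3 rose and 4 fell, a called share of 46.7% that lies near the 41.5% of all genes. In the nuclear lamina 4 of 12 rose, or 2 without HMGN5 OE replicate 1, and 3 fell, with Lmnb1 at 0.25 ± 0.07 and Lmnb2 at -0.44 ± 0.06. Of 8 tested genes linked to HMGN proteins in earlier work, 2 rose, Sox9 (0.78 ± 0.08) and Jun (0.55 ± 0.12), and 5 fell. The largest change was the fall of Hspa1a (-1.16), counted among the heat shock genes too, and the median of the list was -0.42.

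The labelled cell type was read from its markers. Of 13 fibroblast markers 11 were tested, of which 7 rose and 1 fell (72.7% called, against 41.5% of all genes). Their summed intensity was 30102 to 30743 in the arrays labelled HMGN5 OE, against 17436 to 18168 in empty vector. Col1a1, Col1a2, Col3a1 and Fn1 are in this sum and also among the matrix genes above, so the sum is not separate from them. Vim (12.86 in the arrays labelled HMGN5 OE, 12.54 in empty vector) and S100a4 (12.88 in the arrays labelled HMGN5 OE, 12.58 in empty vector) were bright in both pools. Other defining markers were dim or missing. Thy1 averaged 3.53 in the arrays labelled HMGN5 OE and 3.95 in empty vector, near the floor, Dcn had 4.35 in the arrays labelled HMGN5 OE and 4.37 in empty vector, and Lum and Fap did not enter the test. Pdgfra, a receptor of mesenchymal cells, was above the floor in the arrays labelled HMGN5 OE (5.26, 4.49 and 4.81) and below it in empty vector (3.16, 3.16 and 3.15).

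Markers of other cell types stayed dim in most cases. None of 4 tested endothelial, 5 skeletal muscle or 3 beta cell markers was called by limma, also at an unadjusted p below 0.05, and Pecam1, Cdh5, Ptprc and Cdh1 did not enter the test. Of 8 macrophage and leukocyte markers, 2 were higher, and their summed intensity was 233 to 242 in the arrays labelled HMGN5 OE, against 206 to 216 in empty vector. Of 11 epithelial markers 1 rose and 4 fell, or 2 without HMGN5 OE replicate 2, with a summed intensity of 280 to 299 in the arrays labelled HMGN5 OE against 579 to 610 in empty vector. Most of that difference came from Sbsn, suprabasin, with 5.25, 5.45 and 5.34 in the arrays labelled HMGN5 OE and 8.29, 8.26 and 8.40 in empty vector. Of 9 listed adipocyte markers 3 were tested and 2 rose, the lipase Lpl (at least 3.73-fold higher) and Pparg (at least 2.65-fold higher), and Cebpa was not called (-0.25). Lpl and Pparg lay below the floor in empty vector and above it in the arrays labelled HMGN5 OE, so the filter favoured a rise. Tubb3, a neuronal tubulin, rose 2.58-fold to 7.34, 7.34 and 7.63 in the arrays labelled HMGN5 OE, against 6.23, 6.10 and 5.87 in empty vector.

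Whether these changes set the HMGN5 OE pool apart from pools with other constructs was tested by direct contrasts in the same fit, which reuse the arrays labelled HMGN5 OE. Against HMGN5SE OE, the other HMGN5 construct, 5652 genes (42.0%) were called, 2668 (19.8%) higher and 2984 (22.2%) lower. Fbln2 differed by 6.20, Dlk1 by 6.01, Lox by 5.46 and Ifit1 by -3.94 on the log2 scale, and Tbx20 was at least 16.3-fold lower. In this contrast 23 of 29 interferon genes and 19 of 19 amino acid response genes were lower, with 0 higher in each list, and 17 of 19 cholesterol genes were higher and 1 lower. The medians were -0.88, -0.66 and 0.85, against -0.03 over all genes. The HMGN5SE pool itself lay near the vector in these genes, with mean log2 intensities of 4.54 for Fbln2, 7.60 for Ifit1 and 9.16 for Hmgcs1, where empty vector had 4.74, 7.44 and 9.12.

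Against HMGN2 OE 6636 genes (49.3%) were called, 3745 (27.8%) higher and 2891 (21.5%) lower, and the median over all genes was 0.06. All 29 interferon genes were lower in the arrays labelled HMGN5 OE, with a median of -3.34, and all 12 tested MHC class I genes were lower, with a median of -1.36 (-1.30 with bounds). Usp18, which damps interferon signalling, had 2.84 in the arrays labelled HMGN5 OE, 9.32 in HMGN2 OE, 10.43 in HMGN1 OE and 4.74 in empty vector. Irf7 had 3.96 in the arrays labelled HMGN5 OE, 8.39 in HMGN2 OE, 9.64 in HMGN1 OE and 4.98 in empty vector. The means of both genes thus lay below the vector in the arrays labelled HMGN5 OE and above it in these other pools. Cholesterol genes were lower than in HMGN2 OE in 14 of 19 cases and higher in 0, with a median of -0.49, and 15 were lower at an unadjusted p below 0.05. Hmgcs1, for instance, had 10.40 in the arrays labelled HMGN5 OE, 10.87 in HMGN2 OE and 9.12 in empty vector. Of 20 fibrillar collagen and crosslinking genes 9 were higher and 7 lower than in HMGN2 OE (median 0.18), and of 22 other matrix genes 11 were higher and 4 lower (median 0.30). Lox had 9.29 in the arrays labelled HMGN5 OE, 7.69 in HMGN2 OE and 3.60 in empty vector, and Cdh11 was lower than in HMGN2 OE (-0.89, limma adjusted p = 3.34e-06). Hox genes were higher than in HMGN2 OE in 15 of 19 cases and lower in 0, and Id1 differed most of the Id genes, with 10.27 in the arrays labelled HMGN5 OE, 7.19 in HMGN2 OE and 9.53 in empty vector.

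Against HMGN1 OE 6219 genes (46.2%) were called, 2722 (20.2%) higher and 3497 (26.0%) lower, with a median of 0.00 over all genes. All 29 interferon genes (median -3.89) and all 12 MHC class I genes (median -1.45, or -1.37 with bounds) were lower in the arrays labelled HMGN5 OE. Of 22 other matrix genes 17 were higher and 1 lower (median 1.18, or 1.15 with bounds), and Nid1 gave the largest fitted rise, with 10.08 in the arrays labelled HMGN5 OE, 2.78 in HMGN1 OE and 4.59 in empty vector. Mitosis genes were lower than in HMGN1 OE in 20 of 23 cases and higher in 1, although the median was only -0.42, and cholesterol genes were split, with 5 higher and 6 lower. The amino acid list was lower in 11 of 19 cases in this contrast and in that with HMGN2 OE, and higher in 0 in both. Fbln2 had 10.73 in the arrays labelled HMGN5 OE, 4.02 in HMGN1 OE, 7.00 in HMGN1_N2swap and 7.24 in HMGN1_N3swap, so the swap pools lay between. Their Actb difference was larger (0.39 to 0.79), and its part in the result was not tested.

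**Figure D4:**
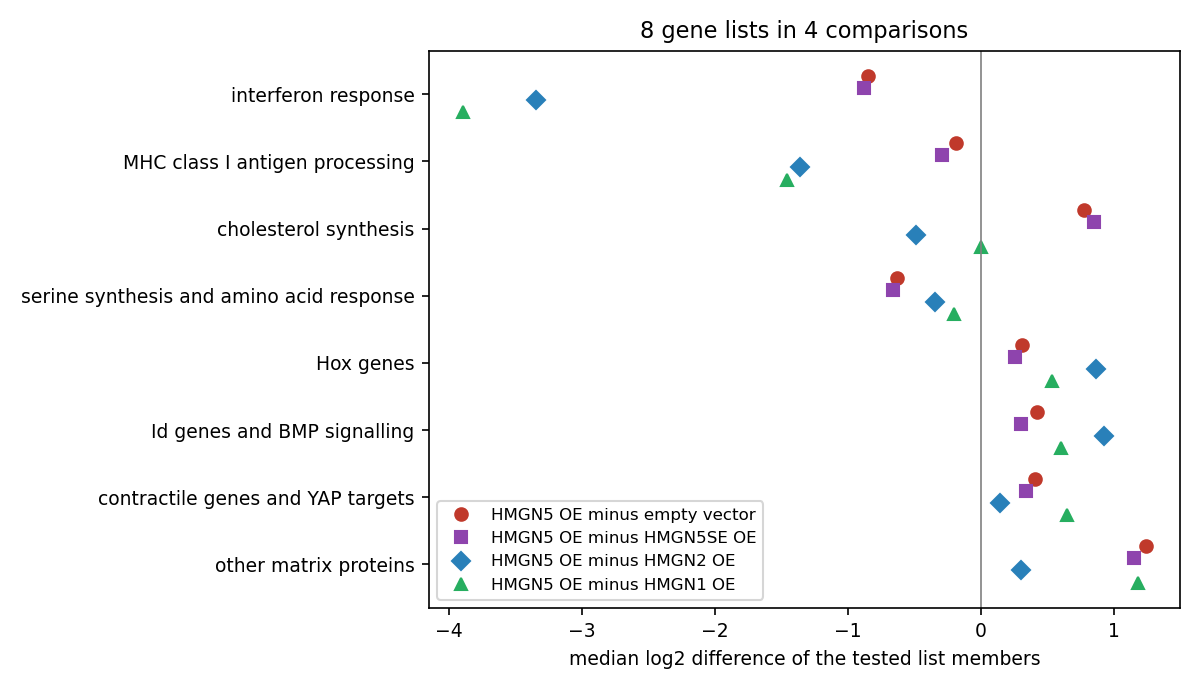
Median log2 difference of the tested members of 8 gene lists in 4 comparisons of the arrays labelled HMGN5 OE, with 1 symbol per comparison. The interferon median is -0.85 against empty vector, -0.88 against HMGN5SE OE, -3.34 against HMGN2 OE and -3.89 against HMGN1 OE.

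The changes were uneven along the chromosomes, and chromosome 15 held the most extreme run. For each chromosome the tested genes were ordered by their RefSeq position, and the medians below are a description with no test. On chromosomes 1, 4 and 16 the shares of higher genes were 38.6%, 37.9% and 41.4%, with medians of 0.13, 0.12 and 0.14, and on chromosome 13 the share of lower genes was 39.9%, with a median of -0.13. Among runs of 50 neighbouring tested genes, the run from Eif3e to Cyrib on chromosome 15 had the lowest median, -0.85, with 38 genes lower, 1 higher and 11 not called, whereas the other 499 tested genes of the chromosome had a median of 0.03. Eif3h, a subunit of a translation initiation factor, had 11.09, 11.09 and 11.07 in the arrays labelled HMGN5 OE, against 12.26, 12.24 and 12.19 in empty vector (-1.15 ± 0.05, limma adjusted p = 5.19e-14). Mtbp, which takes part in replication initiation, had 7.43, 7.48 and 7.52 in the arrays labelled HMGN5 OE, against 9.09, 9.05 and 8.93 in empty vector (-1.54 ± 0.06). The interquartile range of the log2 difference over the 50 genes was -1.08 to -0.31. The 1 gene of the run that rose was Has2, the hyaluronan synthase, which was at least 4.51-fold higher. Myc, near the distal end, was not called (-0.11 ± 0.09, limma adjusted p = 0.346).

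The same 50 genes had median log2 differences from empty vector of -0.01 in HMGN5SE OE, -0.25 in HMGN2 OE and 0.06 in HMGN1 OE. In HMGN3a OE the median was 0.02, in HMGN1_N2swap -0.32 and in HMGN1_N3swap -0.28. The run was picked for its low median in the arrays labelled HMGN5 OE, and no run was searched for in the other pools. That choice favours a lower value in the arrays labelled HMGN5 OE, so the difference from the other pools is no support. All 3 arrays labelled HMGN5 OE lay below all 3 vector arrays in 39 of the 50 genes. The same count was 31 in HMGN1_N2swap, 31 in HMGN1_N3swap, 30 in HMGN2 OE, 12 in HMGN1 OE, 6 in HMGN5SE OE and 3 in HMGN3a OE. Over all tested genes, HMGN5 OE and empty vector did not overlap, in either direction, for 56.2%. The share over all genes was not computed for the lower direction alone or for the other pools. Whether the counts of those pools exceed their own background is therefore not known. The most extreme runs of other chromosomes were smaller, Med16 to Sf3a2 on chromosome 10 with a median of -0.35 and 35 genes lower, and Gjc1 to Ddx5 on chromosome 11 with a median of 0.34 and 28 genes higher. Eif3h, Mtbp, Has2 and Myc were picked from the run after their values were seen. The cause of the run was not tested.

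**Figure D5:**
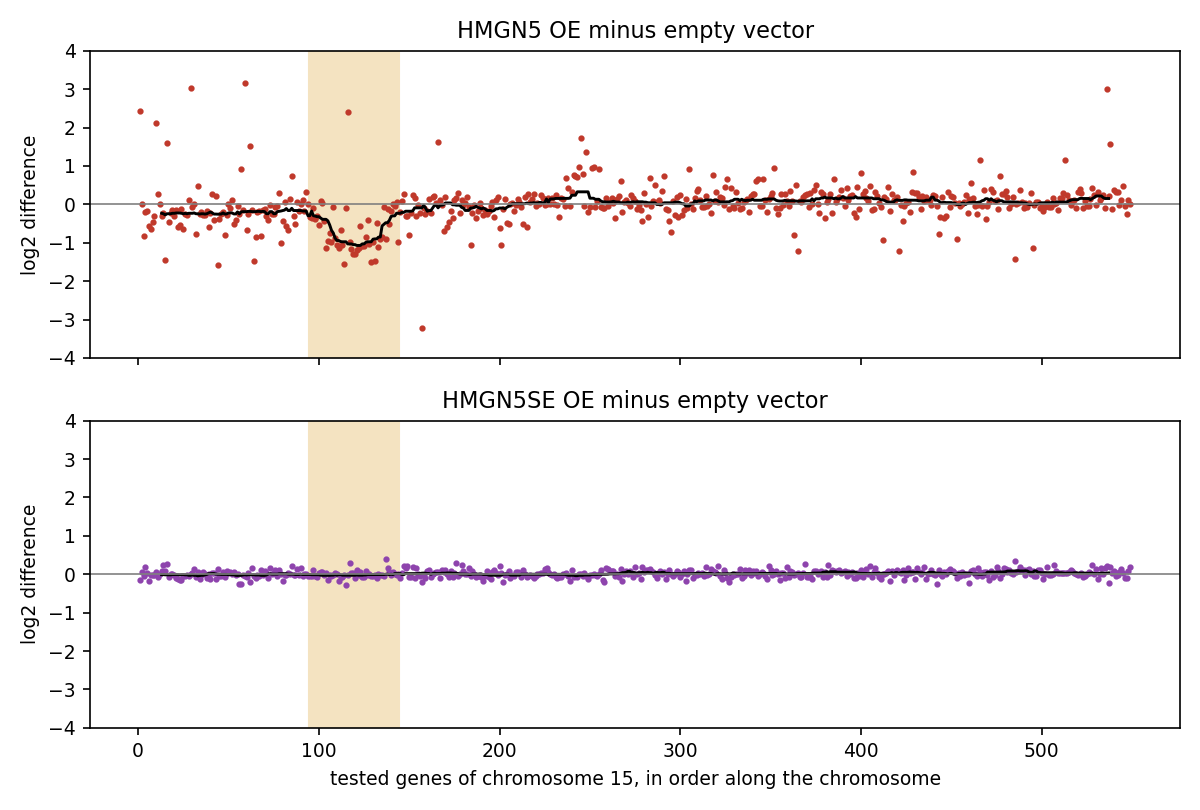
Log2 difference from empty vector of each tested gene of chromosome 15, in order along the chromosome, for the arrays labelled HMGN5 OE above and HMGN5SE OE below, with a running median over 25 genes. The shaded run of 50 genes, picked for its low median in HMGN5 OE, has a median of -0.85 in HMGN5 OE and -0.01 in HMGN5SE OE.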

How the data were processed

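The deposited matrix holds linear intensities of 45101 probe sets of an Affymetrix mouse 430 2.0 array, which the authors computed by RMA per the submitters' processing notes (version not given in the sources used here), and log2 of these intensities was used. RMA shares information across arrays, and array number limits precision. Of the probe sets, 64 controls were left out, 34945 had 1 gene symbol, 932 several and 9160 none. The brightest probe set stood for each of 18193 symbols, and the 13469 genes whose highest group mean passed the 40th percentile (log2 3.63) were tested. A gene dim in every other pool passed only through the arrays labelled HMGN5 OE, and could then only be called higher. R 4.3.3 and limma 3.58.1 (lmFit, eBayes) fitted 8 groups over 24 arrays, with Benjamini-Hochberg adjustment over all tested genes and calls at an adjusted p below 0.05. The method was tested on simulated data. Names and order along chromosomes came from RefSeq GRCm38.p6, and figures from python 3.11.15 with pandas 2.3.3 and matplotlib 3.10.9. Arrays were grouped by their titles. Named genes were the 15 largest rises and falls, 6 per direction in each direct contrast, all Hmgn genes and up to 4 members per list with the largest differences. Further list members were named after their values were seen. The members and lists were chosen with earlier results of these data known. Alternatives changed the filter, the probe set rule, the log offset, normalization, arrays in the fit, an RNA quality covariate and a replicate block.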

Additional observations from a re-analysis of the deposited data

Results flagged for a closer look

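The 15 largest rises name only genes whose probe set carries 1 gene symbol. Among the 10092 non-control probe sets with several symbols or none, 4076 were above the filter level in HMGN5 OE or empty vector. Of these, 460 rose and 404 fell by a separate limma fit, adjusted over all 45101 probe sets. These counts are thus not on the same footing as the shares of genes given above. At 5 of them the arrays labelled HMGN5 OE were higher than empty vector by a fitted log2 difference of at least 4, a signal outside the gene table. Probe set 1438237_at, annotated to several genes, had log2 intensities of 8.20, 8.24 and 8.44 in the arrays labelled HMGN5 OE, against 2.59, 2.39 and 2.45 in empty vector, a fitted log2 difference of 5.82. The vector values are below the floor, so it was at least 25.3-fold higher. Probe set 1427760_s_at, also annotated to several genes, had 10.01, 9.87 and 9.96 in the arrays labelled HMGN5 OE, against 4.46, 4.12 and 4.33 in empty vector, a log2 difference of 5.64. The groups lay far apart in both. The fitted log2 difference was 4.50 for 1423420_at, which is at least 8.84-fold higher since its vector mean of 2.28 lies below the floor. It was 4.24 for 1449632_s_at and 4.06 for 1415951_at. Both were also above the vector in some other pools. Probe set 1449632_s_at averaged 7.66 in HMGN2 OE and 8.08 in HMGN1_N2swap, against 5.53 in empty vector, but 3.68 in HMGN1 OE. For 1415951_at the means were 7.91 in HMGN2 OE and 7.84 in HMGN1_N2swap, against 5.47 in empty vector, but 3.88 in HMGN1 OE.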

How the results depend on the processing

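With every probe set tested on its own, which raises the number of features tested to 24632, the counts of calls became 8851 against empty vector, 8959 against HMGN5SE OE, 11796 against HMGN2 OE and 10058 against HMGN1 OE. No other setting moved these counts by over 1.5 times. Leaving out each replicate in turn gave 4925 to 5115, 4992 to 5112, 5873 to 6255 and 5492 to 5645 calls in the same order. Leaving out the swap pools, or the chromosome 15 run, was chosen after seeing the data. Among differences of single named genes, 2487 kept direction and call, 19 lost and 4 gained the call, and Pcdh7 changed sign with no filter, to -0.018. The lost calls were in Tjp3, Map2, Krt14, Hmga2, Ankrd37 and Crabp1. Counts per gene list moved in 50 of 1118 cases. Beside those given above, the higher count of hypoxia and glycolysis became 0 without HMGN5 OE replicate 3 or empty vector replicate 1, that of oxidative phosphorylation became 1 without HMGN5 OE replicate 1, that of epithelial markers became 0 without HMGN5 OE replicate 3 or empty vector replicate 3, and the lower count of other matrix proteins became 2 under 7 settings. Nothing in the labels says that replicate numbers pair the samples. Same-numbered arrays of HMGN5 OE and empty vector correlated at 0.0268 to 0.0593 in their deviations, and differently numbered ones at -0.0463 to 0.00832. Each array correlated best with its own number, a hint from the data and not the design. With a replicate block the calls were 5521, 5580, 6544 and 6133. Dim signals limit the folds given as bounds.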

Other observations

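Lists not described above moved in smaller ways between the arrays labelled HMGN5 OE and empty vector. Of 10 tested tubulins 5 rose and 2 fell. Beside Tubb3, Tuba4a had log2 intensities of 8.97, 8.97 and 8.96 in the arrays labelled HMGN5 OE, against 8.06, 8.02 and 7.99 in empty vector (log2 difference 0.95 ± 0.08), with no overlap, and Tubb4b fell by 0.31 on the log2 scale (± 0.08). Among Wnt genes, Fzd6, a Frizzled receptor, rose by 0.74 ± 0.07 and Ror2, a receptor tyrosine kinase for Wnt5a, fell by 1.09 on the log2 scale (± 0.08), while Wnt5a itself was at least 1.26-fold higher from a vector mean below the floor. In the nuclear lamina Syne1, which links the nucleus to the cytoskeleton, fell by 0.80 on the log2 scale (± 0.07) and its relative Syne2 rose by 0.44 ± 0.06. Of 3 tested HMGA and HMGB genes, Hmga2 fell by 0.23 on the log2 scale (± 0.08), a call lost without HMGN5 OE replicate 1 or 2 or empty vector replicate 2. Of 8 tested genes of retinoic acid handling 1 fell, the dim Crabp1. Of 5 tested markers of cartilage and bone 1 rose, Sox9, with a summed intensity of 186.9 to 189.0 in the arrays labelled HMGN5 OE and 139.4 to 146.1 in empty vector. For 8 neuron and glia markers, with Tubb3 and Map2 higher (Map2 not called without replicate 1 or 2 of either group), the sums were 314.0 to 343.3 in the arrays labelled HMGN5 OE and 211.8 to 218.3 in empty vector.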
